A study of Macaca fascicularis with 80 samples.

Results

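Whole-blood RNA of cynomolgus macaques was searched for genes that were flat 24 h after a first dose of IL-15/IL-15Ra, raised 72 h after the first and the third dose, and back at the starting level at the end of the study. The search returned 66 of the 9939 genes with a mean of at least 5 CPM (counts per 1000000 counts of the library), out of 38550 genes listed. Members were chosen by their measured values. On a log2(CPM + 1) scale, with each library's median over the 9939 genes subtracted, the mean of 8 animals had to exceed day 0 by at least 0.3 both on day 3 and on day 10, and had to lie within 0.2 of it on day 1 and within 0.15 of it on day 21. The values of days 0, 1, 3, 10 and 21 therefore chose the genes and are given below as a description. Days 4, 7, 8, 14 and 17 entered the choice only through the CPM filter. This filter is the mean of at least 5 CPM, taken over all 80 libraries.

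The 8 animals, 4 females and 4 males, were given IL-15/IL-15Ra in rising amounts: day 0 brought 5 µg/kg, day 3 brought 10 µg/kg and day 7 brought 15 µg/kg. Each was bled into PAXgene tubes on 10 days, giving 80 libraries, 1 per animal and day. Day 0 samples carry a dose of 0 in the labels and served as each animal's own baseline. Days 1, 4 and 8 lay 24 h after a dose, day 3 lay 72 h after the first and day 10 72 h after the third, and day 7 lay 96 h after the second. For days 3 and 7 the labels give the dose of the time before, so these bleeds were read as taken ahead of that day's dose. No undosed animals were analysed, so dose, order of dosing and elapsed time cannot be told apart, and ages are not given in the labels.

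Interleukin 15 signals through a receptor beta chain and the common gamma chain to Janus kinases and STAT5, and the receptor alpha chain presents it to responding cells. It is known for driving survival and division of natural killer cells and memory CD8 T cells, and blood lymphocytes typically leave the circulation soon after such a dose and return expanded some days later. Whole blood RNA pools red cell precursors, platelets, granulocytes, monocytes and lymphocytes. In such bulk samples fewer cells of a type and less RNA per cell cannot be told apart.

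The files give gene identifiers without gene names. Of the identifiers, 0 matched the RefSeq gene table of the species, whose column for such identifiers is empty, so gene products and functions are not named, the tissue could not be checked against marker genes, and no sequence is shown. Any sharing of reads among gene copies is unknown for the same reason. Only 4 of the 66 genes are given by identifier. They are the pair with the highest smaller value of the day 3 and day 10 differences and the other pair with the deepest called fall from day 7 to day 8.

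Libraries held 17.1 to 80.2 M counts (M stands for 1000000) with a median of 24.3 M, and 8 exceeded 40 M: 1 on day 7, 3 on day 8 and 4 on day 10. Sequencing tags in the column names put 71 libraries in 1 run and library batch, 8 in another run (3 from day 10, 5 from day 14) and a single one from day 7 in another library batch. The day 4 library of animal 39102 was least like the others of its day (median r of 0.874 across genes).

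As a group, the 66 genes did not pulse at 72 h alone. Their median difference from day 0 was 0.10 (day 1), 0.42 (day 3) and 0.50 (day 10) on the days the choice rests on. On the days used only for the CPM filter the median was 0.47 (day 4), 0.31 (day 7), 0.38 (day 8), 0.28 (day 14) and 0.07 (day 17). All 66 genes were above day 0 on day 7, as were 63 and 58 on days 4 and 8 and 44 and 49 on days 14 and 17. Day 0 helped choose them, so these differences are not independent of the choice and were not tested. The scaling sets each library's median over the 9939 genes to 0, so their median difference stayed between -0.02 and 0.00 on every day. Above day 0 were 4641 of the 9939 genes on day 4, 4835 on day 7 and 4985 on day 8. On days 14 and 17 it was 4819 and 5013. The label of a transient rise 72 h after a dose restates the choice for the first dose. The rule itself held day 1 flat and day 3 raised. No later sample came before the second dose, so a return after the first was not seen. From day 3 to day 10 the level stayed raised. Of the 66 genes, 58 were above day 0 on each of days 3, 4, 7, 8 and 10. Of these, 19 were at least 0.3 above it on each.

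In the median over the 66 genes, the animals ran close together while the genes were raised. The genes that fell from day 3 to day 4, described below, spread more between animals. On day 8 the number of members above own day 0 ran from 40 in animal 39103 to 62 in animal 39098. The median over the 66 genes lay above the animal's own day 0 by 0.46 ± 0.11 (SD, n = 8 animals) on day 3 and by 0.43 ± 0.10 the day after. It lay 0.31 ± 0.13 above it on day 7, 0.37 ± 0.11 a day later and 0.52 ± 0.08 on day 10, and it was above 0 in 8 of 8 animals each time. On day 3 the 4 males lay between 0.45 and 0.65 and the 4 females between 0.36 and 0.39, without overlap; this difference between sexes was not tested. By day 10 the ranges overlapped, at 0.41 to 0.57 in males and 0.42 to 0.62 in females. Within animals the median moved by -0.02 ± 0.16 from day 3 to day 4 (up in 3 of 8), by -0.12 ± 0.13 from day 4 to day 7 (up in 1 of 8) and by 0.09 ± 0.18 from day 7 to day 8 (up in 6 of 8). Each of these mean steps was smaller than its SD, which gives the spread of the animals and is not a test of the mean step. Day 14 stood apart in its spread, at 0.35 ± 0.31. Animals 39097 and 39090 were highest on that day at 0.88 and 0.69, and animal 39095 was lowest at -0.08.

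To see the same course in an animal left out, the day differences of the rule were taken over 7 animals at a time. The genes so chosen were measured in the remaining animal. The CPM filter still used all 8 animals, so the animal left out was not wholly without a say. The lists held 55 to 74 genes, 44 to 56 of them among the 66, and 16 of the 66 genes were in all 8 lists. In the animal left out, the list median exceeded day 0 by 0.43 ± 0.12 (SD, n = 8) on day 3 and by 0.49 ± 0.07 on day 10, with 8 of 8 animals above 0 on both days and on days 4, 7 and 8. The lowest left-out animal stood at 0.30 on day 3 and 0.37 on day 10. On day 1 it was 0.07 ± 0.06 and on day 21 -0.04 ± 0.14, with 3 of 8 animals above day 0. The lists overlap between animals, so no test is given.

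Members differed in size and in shape. Their mean level ran from 5.29 to 791 CPM with a median of 27.2 CPM, against 35.9 CPM over the 9939 genes. On day 3, 8 genes had at least doubled, on day 10 6 had, and 4 on both days. The day 10 difference was larger than the day 3 difference in 41 genes and smaller in the other 25. In 6 genes the mean level on day 0 was under 5 CPM, so these passed the filter on low values only through later days. The least raised member had a smaller value of 0.30 against 0.298 for the nearest gene outside. On day 1 the farthest member lay 0.199 from day 0 and the nearest gene outside 0.2003.

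Against day 0, edgeR (quasi-likelihood test, animal as a block, Benjamini-Hochberg adjusted p under 0.05) called 65 of the 66 genes up on day 3, where 7.91% of all 16054 genes tested were called up and 7.44% down. It called 58 up on day 10, where 12.6% of all genes were called up and 9.47% down. On day 1 it called 0 of 66 (16 at an unadjusted p under 0.05, background 4.47%, 2.61% up and 1.86% down) and on day 21 0 of 66 (0 at an unadjusted p under 0.05, background 27.7%, 12.5% up and 15.2% down). These counts follow from the choice and carry no further weight. Each background, here and below, is the share of genes called after adjustment. For comparisons of days, the share of all genes at an unadjusted p under 0.05 was not counted.

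Genes that rose on both days were usually not flat on day 1. Of 686 genes at least 0.3 above day 0 on days 3 and 10, 363 were already at least 0.2 higher on day 1 and 36 were at least 0.2 lower. Of the flat ones, 164 were still at least 0.15 higher on day 21 and 57 at least 0.15 lower, which left the 66. The 164 genes differed from the members in their late course, with a median of 0.57 above day 0 on day 14 and 0.41 on day 17, against 0.28 and 0.07 in the members. The 363 early genes were highest on days 4 and 8, at 0.67 and 0.69, against 0.30 on day 7 and 0.66 a week later. All these sets were chosen by measured values, and the differences between them were not tested.

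**Figure D1:**
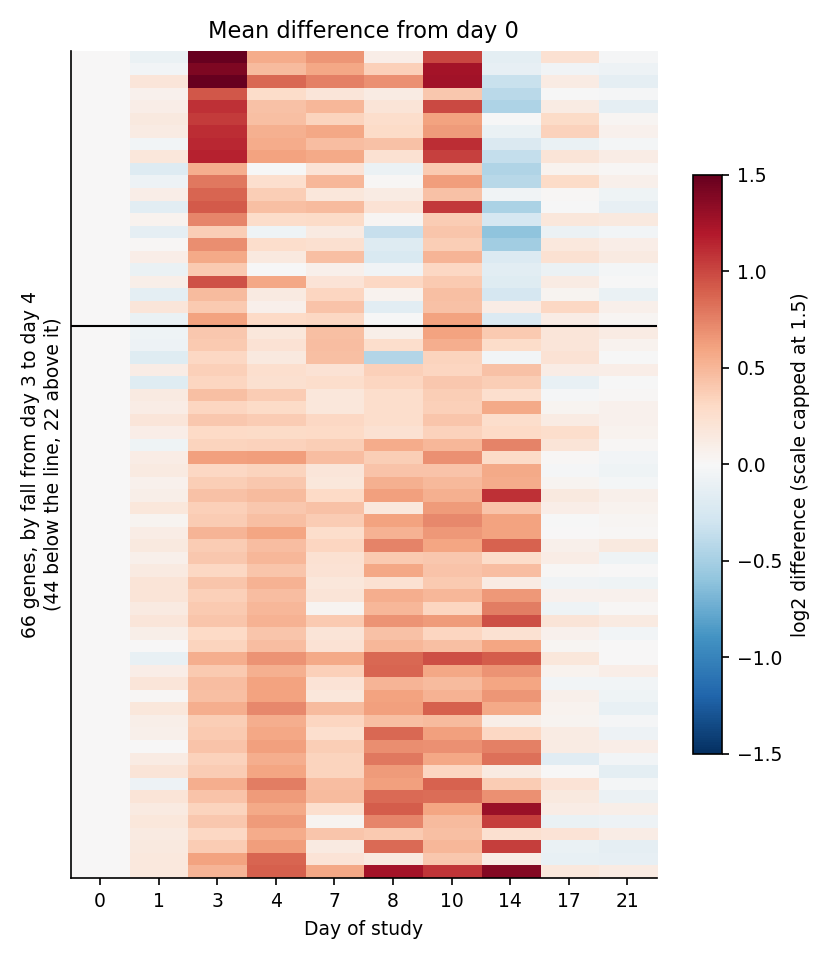
Mean log2 difference from day 0 (colour, red higher and blue lower, capped at 1.5) of the 66 genes (rows) on 10 days (columns), ordered by the fall from day 3 to day 4. The 22 genes above the line fell by at least 0.3 and were mostly below day 0 on day 14, while 43 of the 44 below the line were above day 0 on day 14.

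The 66 genes were split by their change from day 3 to day 4. In 22 genes the level fell by at least 0.3 from day 3 to day 4, and in 44 it fell less or rose. This division was made after the values were seen and gets no test. In the 22 genes the median was 0.90 above day 0 on day 3 and 0.55 on day 10. It was 0.33, 0.38 and 0.11 on days 4, 7 and 8. The rule held days 3 and 10 raised and the division set day 4 below day 3, so that part restates the choice. On day 14 the 22 genes lay at -0.23, with 21 of 22 below day 0, and on day 17 at 0.12. The 44 other genes were higher 24 h after the later doses than on day 7. Their medians were 0.39, 0.51, 0.30, 0.53 and 0.50 on days 3, 4, 7, 8 and 10. The division kept genes that fell by 0.3 by day 4 out of the 44, so their day 4 value partly restates it. The 44 stood at 0.57 on day 14, where 43 of 44 were above day 0, before reaching 0.07 on day 17. The 22 were the scarcer transcripts, with a median of mean levels of 12.2 CPM against 44.7 CPM in the 44.

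**Figure D2:**
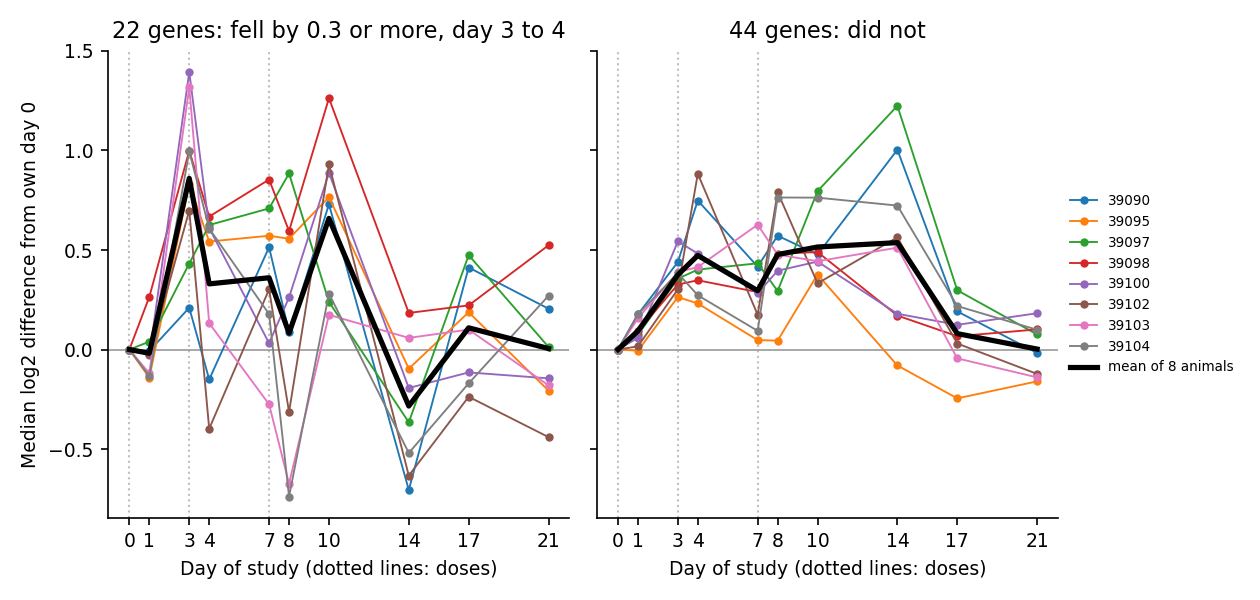
Median log2 difference from own day 0 (vertical axis) by day of study (horizontal axis) in each of 8 animals, for the 22 genes that fell by at least 0.3 from day 3 to day 4 (left) and the 44 others (right), with the mean of 8 animals in black. On day 14 the means lay at -0.28 on the left and 0.54 on the right.

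How far the 22 genes had fallen by day 4 differed between animals. Their median on day 4 was -0.40 in animal 39102 and -0.15 in 39090, but 0.13 in 39103 and 0.54 to 0.67 in the other 5. Without animal 39102, 18 of the 22 still fell by 0.3 and the medians of the 22 and the 44 on day 4 were 0.42 and 0.41, in place of 0.33 and 0.51. On day 8 the 22 genes were again low in some animals, at -0.31 in 39102, -0.67 in 39103 and -0.74 in 39104, and 0.09 to 0.88 in the other 5. The same 3 animals gave the day 8 libraries of over 40 M counts, and the part of depth in this was not tested. The difference on day 14 was broader. The 22 genes were below own day 0 in 6 of 8 animals and the 44 above it in 7 of 8. Without animal 39102 the day 14 medians were -0.20 and 0.57.

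Libraries in which the 22 genes ran high for their day tended weakly to have the 44 low. Within a day, deviations from the day's mean correlated at a median r of 0.67 between genes of the 22, 0.31 between genes of the 44 and -0.21 between the 2 sets, each over the same 80 libraries. The median between the members and all 9939 genes was -0.01. These correlations share libraries and animals and are a description only. The division was made on the same libraries, which can set part of the opposite sign. On day 3 animal 39100 was highest in both sets, at 1.39 in the 22 and 0.54 in the 44.

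The steps between days that the choice used only for the CPM filter were tested across all genes. From day 4 to day 7, edgeR called 0 of the 66 genes (14 at an unadjusted p under 0.05, 12 of them lower on day 7), where 3.08% of all genes were called, 2.19% up and 0.885% down. DESeq2 called 5 members, all lower on day 7, or 7.58% against 4.01% of all genes called lower and 5.59% higher. The median of the edgeR log2 fold changes was -0.15 against 0.03 over all genes, and the mean difference was negative in 45 of 66 genes. Among the 44 it was negative in 37 (median log2 fold change -0.23), and among the 22 in 8 (median 0.03), a difference that the division itself, made on day 4 values, can set. No member was called higher 96 h after the second dose than 24 h after it, which is near the background of 2.19%.

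From day 7 to day 8, 24 h after the third dose, 5 members were called, all down, or 7.58% of the members against 7.77% of all genes called down. That share was near the background. Over all genes 13.8% were called in either direction and 6% were called up. At an unadjusted p under 0.05, 15 members were higher and 11 lower on day 8. No share of all genes at that unadjusted p stands beside these counts, so nothing is read from their size. All 15 higher members were among the 44, where the mean difference was positive in 35 genes (median log2 fold change 0.28). Of the 11 lower members, 9 were among the 22, where the mean difference was negative in 21 (median -0.34). The call count was 0 without any 1 of animals 39095, 39098 and 39102, where 0.816%, 1.2% and 1.74% of all genes were called down. It was 1 without 39090 or 39100 (1.52%, against 2.16% and 2.83% of all genes called down). Without 39104 it was 2 (3.03% against 4.51%), and without the animal block 0 (2.88% of all genes called down). It was 15, with 9 up and 6 down, without the 4 animals that had a library over 40 M counts on either day (13.6% and 9.09%, against 11.4% and 6.89% of all genes). With library totals in place of scaling factors it was 16, all down (24.2% against 25.7% of all genes), where the median of all genes was -0.43 in place of -0.06.

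From day 8 to day 14, edgeR called 0 of 66 (11 at an unadjusted p under 0.05, 3 higher and 8 lower), with 2.82% of all genes called, 1.66% up and 1.16% down. DESeq2 called 3, all down (4.55% against 4.86% of all genes). The median log2 fold change was -0.39 in the 22 genes and 0.03 in the 44.

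Of the 4 steps, that from day 14 to day 17 gave the most calls. Here 31 of the 66 genes were called, 26 down and 5 up, or 39.4% and 7.58% of the members, against 10.8% and 9.23% of all genes (20% in either direction). Day 17 is not free of the choice, since the rule held day 21 near day 0 and over all 9939 genes the difference between days 17 and 21 was small (quartiles -0.06 and 0.05). Genes away from day 0 on day 14 were thus likely to move back, and nothing is read from the excess over the background. All 26 that fell were among the 44, with log2 fold changes from -1.25 to -0.35. Their median above day 0 went from 0.68 on day 14 to 0.05 on day 17. All 5 that rose were among the 22, with log2 fold changes from 0.51 to 0.97, from a median of -0.42 on day 14 to 0.17 on day 17. The median over members fell in 8 of 8 animals. With library totals the calls were 16 up and 9 down (24.2% and 13.6%, against 32.7% and 4.35% of all genes), where the median of all genes was 0.43 in place of 0.06. The count was 0 without animal 39102 and 0 without 39103, where 0 of all 16054 genes were called. In that pair of fits 39 and 41 members had an unadjusted p under 0.05. The count was 5 without 39090 and 11 without 39097, all down (7.58% and 16.7%, against 0.467% and 3.16% of all genes). Without the animal block it was 19, with 2 up and 17 down (3.03% and 25.8%, against 3.86% and 7.91% of all genes).

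**Figure D3:**
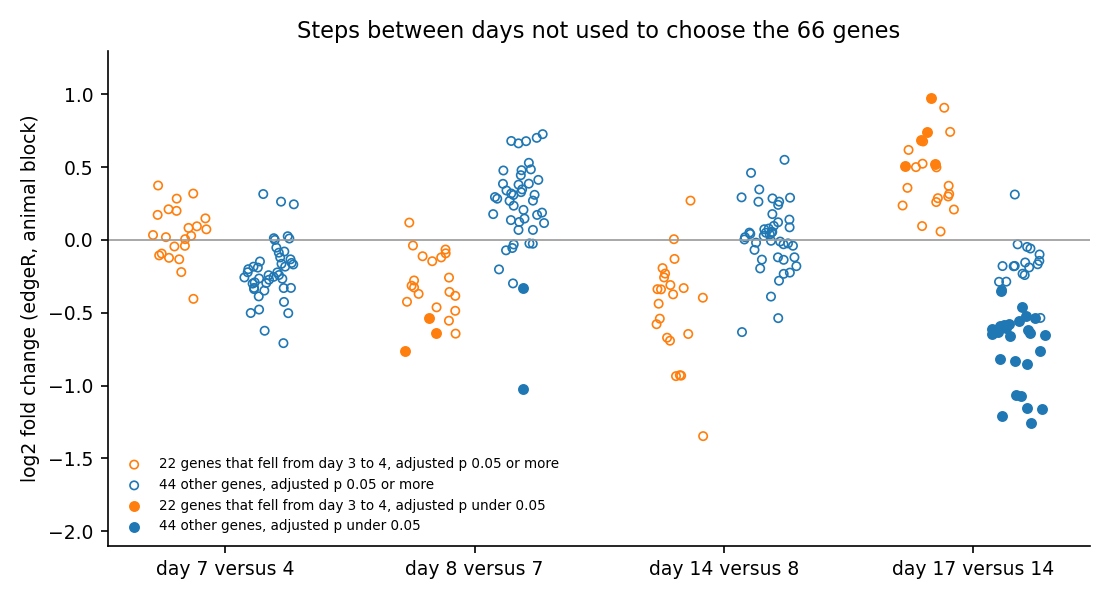
Log2 fold change of each of the 66 genes (vertical axis, edgeR with animal as a block) for 4 steps between days (horizontal axis). These days entered the choice only through the CPM filter. Orange marks the 22 genes that fell from day 3 to 4 and blue the 44 others, filled where the adjusted p was under 0.05. For day 17 versus day 14, 26 blue points are filled below 0 and 5 orange points above it.

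Libraries of days 10 and 14 differed in sequencing run, and those of day 10 also in depth. On day 10 the member median was 0.42 to 0.62 in the 5 libraries of the shared run and 0.41 to 0.57 in the 3 of the other run. It was 0.50 to 0.62 in the 4 libraries over 40 M counts and 0.41 to 0.57 in the other 4. On day 14 it was 0.25 to 0.48 in the 3 libraries of the shared run and -0.08 to 0.88 in the 5 of the other. In the 3 animals whose libraries of both days came from the shared run, all male, 14 members were called between days 14 and 17, all down (21.2%, against 4.8% of all genes down and 1.44% up).

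Whether females and males took different steps over days 4, 7 and 8 was tested with the 2 interaction terms together. edgeR called 0 of the 66 genes (7 at an unadjusted p under 0.05) and 0 of all genes (330 at an unadjusted p under 0.05), a background of 0%. DESeq2 called 0 members and 2 of all genes.

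ENSMFAG00000045080 had the highest score of the rule and was one of the 22. It was named for its day 3 and day 10 differences, so those rises restate the choice. It was also 1 of the 6 genes with a mean level under 5 CPM on day 0. Its level on day 0 ran from 1.84 to 8.01 CPM with a median of 4.86 CPM, and on day 3 from 3.80 to 37.5 CPM with a median of 22.7 CPM. The median was 8.86 CPM on day 4, 9.32 CPM on day 7 and 7.28 CPM on day 8, then 12.2 CPM on day 10 and 2.84 CPM on day 14. The groups of days 0 and 3 overlapped only through animal 39090, which was lowest on day 3, although all 8 animals rose. Relative to own day 0 it was higher by 1.77 ± 0.70 log2 units (SD, n = 8) on day 3 and by 1.26 ± 0.57 on day 10. The step from day 4 to day 7 gave a log2 fold change of -0.12 (SE 0.24, edgeR adjusted p = 0.82), and that from day 7 to day 8 one of -0.12 (SE 0.19, adjusted p = 0.67). From day 8 to day 14 it was -1.35 (SE 0.42, edgeR adjusted p = 0.10), with 6 of 8 animals lower. DESeq2 placed the last step past the threshold (adjusted p = 0.0082, range over all settings 0.0023 to 0.90). In the 3 animals of the shared run the change was 0.15 (SE 0.41, edgeR adjusted p = 0.90), the opposite direction. These 3, all male, also gave the day 8 libraries of over 40 M counts, so run, depth and animal cannot be told apart. From day 14 to day 17 the change of the gene was 0.68 (SE 0.30, edgeR adjusted p = 0.12), with 7 of 8 animals higher. That step was 1.04 with library totals (edgeR adjusted p = 0.020) and -0.11 in the 3 animals of the shared run (adjusted p = 0.84). The 2 small steps also changed sign under some settings, to 0.08 with library totals for the first and 0.07 without libraries over 40 M counts for the other.

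ENSMFAG00000038167 had the next highest score of the rule, so its rises on days 3 and 10 restate the choice as well. It followed the same course and was also 1 of the 6 genes with a mean level under 5 CPM on day 0. Its median level was 2.82 CPM on day 0, 13.4 CPM on day 3, 4.61 CPM on day 4, 4.43 CPM on day 8 and 9.81 CPM on day 10. On day 3 the animals ran from 2.46 CPM in 39090 to 21.8 CPM in 39100, and on day 0 from 2.35 to 7.73 CPM. On the median-subtracted log2 scale all 8 animals were above their own day 0 on days 3, 7 and 10. In CPM, animal 39090 was lower on day 3 than on day 0 (2.46 against 2.83). Animal 39103 was lower in CPM on day 7 than on day 0 (3.21 against 3.47). None of the 4 unused steps was called by edgeR (adjusted p from 0.27 to 0.73), and the largest was -0.67 from day 8 to day 14 (SE 0.37). That step was 0.36 in the 3 animals of the shared run (edgeR adjusted p = 0.82), the opposite direction. Without libraries over 40 M counts it was -1.23 (edgeR adjusted p = 0.12). That fit held the other 5 animals, whose day 14 libraries all came from the other run. Run, depth and animal thus cannot be told apart here.

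ENSMFAG00000002770, one of the 44, had the deepest called fall from day 7 to day 8 and was named for it, so that fall restates the choice. Its level on day 7 ran from 9.30 to 38.95 CPM with a median of 16.3 CPM, and on day 8 from 1.33 to 16.6 CPM with a median of 8.35 CPM. The days overlapped, and all 8 animals were lower on day 8. The log2 fold change was -1.03 (SE 0.22, edgeR adjusted p = 0.023). Leaving out 39095, 39098, 39100 or 39102 lost the call (adjusted p 0.052 to 0.065), as did fitting without the animal block (adjusted p = 0.14). Animal 39098 was highest on 9 of the 10 days. The gene was a weak member, with 0.31 ± 0.23 above own day 0 on day 3 and 0.33 ± 0.69 on day 10, where 6 of 8 animals were higher.

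ENSMFAG00000034468, one of the 22, had the next deepest called fall from day 7 to day 8. Its level on day 7 ran from 7.65 to 25.7 CPM with a median of 17.3 CPM, and on day 8 from 2.85 to 12.3 CPM with a median of 8.58 CPM. The log2 fold change was -0.76 (SE 0.22, edgeR adjusted p = 0.045, lower in 7 of 8 animals), again a restatement of the choice. The call was lost without any 1 animal except 39103 (adjusted p 0.055 to 0.11) and without the animal block (adjusted p = 0.056). From day 4 to day 7 the change was 0.32 (SE 0.17, adjusted p = 0.34). On day 3 the median was 17.7 CPM against 11.4 CPM on day 0, with 8 of 8 animals higher.

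**Figure D4:**
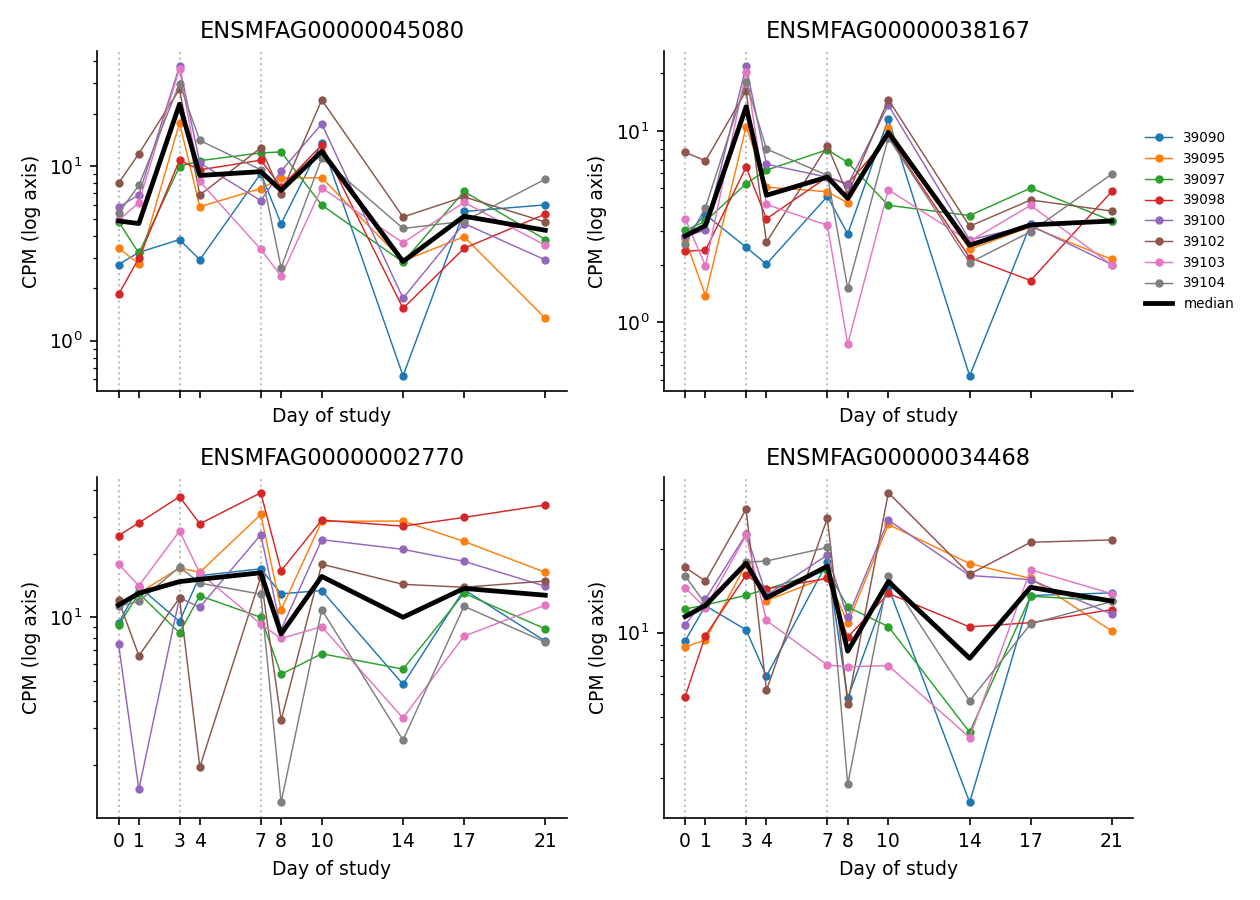
CPM on a log axis (vertical) by day of study (horizontal) of the 4 genes given by identifier, with a line for each of 8 animals and the median in black. The upper pair peaked on days 3 and 10, with medians of 22.7 and 12.2 CPM for ENSMFAG00000045080, and the lower pair had its 2 lowest medians on days 8 and 14.

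A second table of the same libraries, counted under identifiers of another gene set, gave 64 of 9953 genes when chosen the same way. Their medians were 0.44, 0.47, 0.31, 0.42 and 0.55 on days 3, 4, 7, 8 and 10, and 0.33 on day 14. From day 14 to day 17, edgeR called 4 of them up and 22 down (6.25% and 34.4%, against 11.5% and 10.6% of all genes in that table). Both tables come from the same samples, and their identifiers were not matched to each other.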

How the data were processed

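The authors deposited counts, whole numbers of reads per gene and library, in 2 tables of the same 80 libraries. Per the labels' protocols, an RNAdvance Blood kit gave the RNA and a KAPA HyperPrep kit the mRNA libraries. Aligner, counter, build and strandedness: not given in the sources used here. Columns were matched to samples by library name. Members and lists were chosen with earlier results of these data known.

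Genes kept by filterByExpr grouped by day (16054) were scaled with TMM factors over 80 libraries. Fits compared 2 days at a time over 16 libraries, with animal as a block, in edgeR 4.0.16 (R 4.3.3), adjusted over all genes. SE is the fold change over the root of F. Animal numbers in the labels give the pairing: deviations from day means correlated at a median r of 0.58 within an animal and -0.08 between animals, and 80 libraries were closest to their own animal. Replicates are separate animals; no 2 libraries of a day agreed within counting noise (chi-square per degree of freedom at least 29.9). Alternatives used DESeq2 1.42.0, limma 3.58.1 (voom), other scalings, filters and cuts, and animals left out. Procedures were tested on simulated data. Identifiers named were the 2 members with the highest rule score and the 2 others with the most negative called change from day 7 to day 8; marker lists needed gene names and were not used.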

Additional observations from a re-analysis of the deposited data

Results flagged for a closer look

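Within each day's 8 animals, the highest and lowest values were checked for standing apart in the member median and in the 4 identified genes. Of 49 such groups 4 held a value set apart, where chance gives about 1 in 20. ENSMFAG00000038167 was at 7.73 CPM in animal 39102 on day 0, with the others at 2.35 to 3.47 CPM, and at 6.98 CPM in the same animal on day 1, with the others at 1.38 to 3.97 CPM. ENSMFAG00000002770 was at 34.1 CPM in animal 39098 on day 21, with the others at 7.64 to 16.3 CPM. ENSMFAG00000034468 was at 21.5 CPM in animal 39102 on day 21, with the others at 10.1 to 13.9 CPM.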

How the results depend on the processing

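The number of members ranged from 50 to 93 over rule cuts, pseudocounts, filters and scalings, and from 55 to 74 with 1 animal left out. Sharing was weaker than the number: 44 to 56 of the 66 genes were kept when 1 animal was left out, and 49 without the median subtraction. The sex-by-day count was 0 in all 13 settings, leaving out each animal included (range 0 to 0). Calls from day 4 to day 7, 0 in the main analysis, were 5 with DESeq2 and 5 in 1 fit over all 80 libraries, all down. These were 7.58% of the members each time, against 4.01% and 5.94% of all genes called down. In the 77 genes chosen without the median subtraction 2 were called, all down (2.6% against 0.885%). With an animal left out there were 0 to 2, at most 3.03% against 3.16% of all genes called down. Calls from day 7 to day 8, 5 in the main analysis, were 16 with library totals, 10 with DESeq2, 17 in the fit over all libraries, 15 without libraries over 40 M counts, 2 in the 72 genes chosen with TMM scaling and 0 to 5 with an animal left out. Calls from day 8 to day 14, 0 in the main analysis, were 3 with DESeq2, 11 in the fit over all libraries, 1 without libraries over 40 M counts and 0 to 2 with an animal left out. Calls from day 14 to day 17, 31 in the main analysis, were 14 within the shared run (share given above). With an animal left out there were 0 to 32. The 32, without 39100, were 7 up and 25 down (10.6% and 37.9%, against 10.2% and 12.3% of all genes). Without the replicate block, that is without pairing by animal, the 4 steps gave 0, 0, 0 and 19 calls. The median over members from day 4 to day 7 was -0.13 and became 0.041 with library totals, where all genes shifted by 0.16; from day 7 to day 8 it was 0.10 and became -0.24, where all genes shifted by -0.34. With an animal left out these medians ran from -0.15 to -0.08 and from 0.05 to 0.15. The second table, the shared-run subset and the division without animal 39102 were chosen after seeing the data. Except where fewer animals were fitted, the cause of these differences was not tested. Changes in the scarcest members rest on few reads, down to 6 counts in a library.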
